A study of Astyanax mexicanus with 96 samples.

Results

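Intermediate filament genes were followed in ventricles of Astyanax mexicanus, the Mexican tetra, after cryo-injury, after a sham operation and without surgery. The genes were chosen by symbol alone and comprise the keratins, vimentin (vim), the desmins (desma and desmb), the lamins, nestin (nes), synemin (synm), syncoilin (sync) and gfap. The rule found 30 of the 27420 genes of the count table. Of these, 16 were keratins, 3 were lamins, 8 were other filament genes or their partners, and 3 matched by name only. The last 3 encode other kinds of protein: krtcap2, a subunit of the complex that attaches sugar chains to proteins, and the RNA-binding proteins syncrip and syncripl. In all, 24 of the 30 genes reached 1 CPM (counts scaled to a library total of 1000000) in at least 1 library and entered the tests. The 6 others were krt1-c5 and krtt1c19e with 2 reads each, and krt222, gfap, a second krt15 gene and a second krt8 gene, which had 0 reads in all libraries together.

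Intermediate filaments are rope-like polymers that give cells mechanical strength. Keratins form them in epithelia from a type I and a type II partner, with keratin 8 and keratin 18 as the pair of simple, single-layered epithelia such as the mesothelial sheet that covers the heart, and keratin 5 as a mark of the basal layer of the epidermis. In muscle, desmin links the contractile apparatus to the cell membrane and to its neighbours, with synemin and syncoilin as partners. Vimentin is the filament of mesenchymal cells, nestin is found in progenitor cells and in regenerating muscle, and lamins line the inside of the nucleus.

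The fish were 2 years old and came from 2 populations, surface fish (SF) of the river-dwelling form and cavefish of the Pachon cave (PC), with 48 libraries each and 1 ventricle per library. In cryo-injured fish a copper probe cooled in liquid nitrogen was put on the tip of the ventricle, and these hearts were taken at 6 hours (6 hpci), 1 day (24 hpci), 3, 7, 14 and 30 days (dpci). Sham fish received a probe at room temperature and were sampled at 6 hours (6 hps), 1 day (24 hps) and 3 days (3 dps), while uninjured fish had no operation. Each uninjured group held 3 libraries and each of the 18 other groups 5, so that cryo-injury was compared with sham up to 3 days and with uninjured ventricles from 7 days on, where no sham hearts were sampled. No transgene or mutation is named for either population, and each library held the whole ventricle, wound and spared muscle together.

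The libraries were 3′ tag libraries, in which each transcript gives about 1 read whatever its length, and held 672292 to 2586602 counts each, with a median of 1687721.5. A gene was called when its adjusted p was under 0.05 and its fitted difference over 2-fold in edgeR's quasi-likelihood test, with Benjamini-Hochberg adjustment over the 18763 genes tested in each comparison. The fit held 1 estimated factor of unwanted variation, whose mean differed between groups (0.14 in SF and 0.02 in PC at 24 hps, 0.11 and -0.02 in uninjured ventricles, -0.07 and -0.18 at 7 dpci). In every cryo-injury comparison its mean was lower after injury than in the control, and in every condition it was higher in SF than in PC. Part of an injury or population difference may thus be taken up by the factor, and fitted differences can depart from the ratios of CPM means. For some genes the value without the factor is given too. The fit was repeated under 15 other settings. Of the 92 calls among the 24 genes over all comparisons, 89 were lost or changed direction under at least 1 of them, and the number that kept a call is stated for some calls only. Labels were checked with 140 genes called in the same direction between SF and PC in the 8 conditions other than 6 hps and 3 dps. By these genes, 0 libraries stood on the wrong side of their label, and no 2 libraries held the same counts. Since the labels of those 8 conditions chose the genes, the check tells of the 6 hps and 3 dps libraries only. P-values of the fit rest on the spread between ventricles, estimated from all 96 libraries together and not from the compared groups alone. In whole ventricles, fewer cells of a type and less RNA per cell cannot be told apart.

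The genes of the rule, those matched by name only included, together took 2224 to 7055 CPM per library, of which krt8, krt18a.1, krt18b, krt4, desma and desmb supplied 59.4% to 94.7%. In the deposited annotation (assembly Mexican tetra 2.0), krt8 lies at chr15:34786106-34793929 on the plus strand, near krt18a.1 (chr15:34694869-34704000, minus strand), krt18a.2 (chr15:34686359-34694309, minus strand) and krt5 (chr15:34849444-34856460, plus strand). The genes krt18b (chr13:36829987-36839299, minus strand) and krt4 (chr13:36875844-36882342, plus strand) are neighbours on another chromosome. The sources used here do not state how reads matching several genes were counted, so values of krt8, krt15 and the krt18 genes are uncertain to that extent. The remaining keratins are krt91 and krtt1c19e on chromosome 23, krt15, krt98 and krt99 on chromosome 5, and krt96 and krt222 on an unplaced scaffold. In the annotation krt15 overlaps krt98 on the other strand while krt91 overlaps ENSAMXG00000031543 and krt96 overlaps zgc:92335 on the same strand, so that reads of these neighbours may be mixed.

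Keratins 8 and 18, of simple epithelia, were highest at 7 dpci in PC ventricles. There krt8 (type II), its type I partners krt18a.1 and krt18b, and krt4, which marks surface epithelia in zebrafish, all rose against uninjured PC ventricles, by 1.66 to 3.66 on the log2 scale. These 4 of the 11 tested keratins were called, and 7 of all 24 tested genes, against 2.42% of all genes. The median fitted difference of the 24 genes was 0.84, next to 0.04 over all genes, but it counts genes with few or no reads. Among them lmna and krt99 had 0 CPM in both groups, with fitted values of 0.82 and 1.215, so no shift of the genes as a set is read from it. In SF ventricles at 7 dpci, 2 of the 24 genes, krt4 and the lamin lmnb1, were called against uninjured SF ventricles, where 3.03% of all genes were.

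The most abundant keratin, krt8, had 3427, 3092, 2376, 2113 and 2844 CPM in PC ventricles at 7 dpci, against 671, 629 and 605 CPM in uninjured PC ventricles. Every injured library lay above every uninjured one, and the fitted difference was 1.66 ± 0.30 on the log2 scale (SE, adjusted p = 0.000129), a call kept in 14 of 15 other settings. In SF ventricles krt8 had 1394, 2029, 2712, 1662 and 2756 CPM at 7 dpci, against 974, 909 and 734 CPM in uninjured SF ventricles. These groups did not overlap either, but the fitted difference of 0.75 ± 0.31 on the log2 scale (SE, adjusted p = 0.194) was not called, while the fit without the factor gave 1.27 (adjusted p = 6.15e-05) and called it.

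The keratin 18 genes showed the same order of groups. At 7 dpci krt18a.1 had 977, 696, 777, 716 and 707 CPM in PC ventricles, against 236, 213 and 202 CPM in uninjured ones, a difference of 1.81 ± 0.28 on the log2 scale (SE, adjusted p = 7.79e-06). Its duplicate krt18b had 1438, 1504, 1323, 1818 and 1474 CPM in PC ventricles at 7 dpci, against 237, 293 and 243 CPM in uninjured ones, a difference of 1.91 ± 0.36 on the log2 scale (SE, adjusted p = 0.000259). Both calls were kept in 14 of 15 settings and no injured library overlapped an uninjured one. In SF ventricles at 7 dpci krt18a.1 averaged 506 ± 111 CPM (SD, n = 5) and krt18b 991 ± 273 CPM, against 304 ± 54.9 and 303 ± 158 CPM in uninjured SF ventricles (n = 3). Neither was called there (krt18a.1 0.71, adjusted p = 0.185, and krt18b 1.00, adjusted p = 0.123), and krt18b was called without the factor (1.71, adjusted p = 1.42e-05).

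Whether the 7 dpci response differed between the populations was tested directly, as the SF response minus the PC response. The difference was -1.105 ± 0.31 on the log2 scale (SE, adjusted p = 0.051) for krt18a.1, -0.91 ± 0.33 on the log2 scale (SE, adjusted p = 0.168) for krt8 and -0.91 ± 0.39 on the log2 scale (SE, adjusted p = 0.305) for krt18b, and none of these was called. A larger rise in PC was therefore not shown.

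Among krt8, krt18a.1, krt18b and krt4, the last had the highest ratio of largest to smallest group mean. Its mean was lowest in uninjured PC ventricles and highest in SF ventricles at 3 dpci. At 7 dpci it had 257, 183, 58.6, 199 and 156 CPM in PC ventricles, against 7.52, 4.15 and 6.61 CPM in uninjured ones, and 159, 172, 205, 132 and 401 CPM in SF ventricles, against 22.9, 8.84 and 14.2 CPM in uninjured SF ventricles. The differences were 3.66 ± 0.74 on the log2 scale (SE, adjusted p = 0.000982) and 2.48 ± 0.69 on the log2 scale (SE, adjusted p = 0.0265), with no overlap in either population. The PC call was kept in 13 of 15 settings and the SF call in 10 of 15, where it was lost without replicate number 1, 4 or 5.

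By 14 dpci the only one of krt8, krt18a.1, krt18b and krt4 still called was krt18b in PC ventricles, with 801, 1164, 847, 784 and 774 CPM against 237, 293 and 243 CPM in uninjured ones. The difference was 1.38 ± 0.31 on the log2 scale (SE, adjusted p = 0.0147), in a comparison where 0.432% of all genes were called and nes was the one other member. In the fit without the factor krt4 was called too in PC at 14 dpci (3.12, adjusted p = 0.00183) and in SF at 14 dpci (2.40, adjusted p = 0.00226). With the factor, edgeR called 0 of the 24 genes in SF at 14 dpci (2.47% of all genes; 8 at an unadjusted p under 0.05), and DESeq2 also called 0.

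From 7 to 30 dpci krt8, krt18a.1, krt18b and krt4 fell. PC ventricles at 30 dpci had 815, 716, 651, 763 and 549 CPM of krt8, below each of the 7 dpci values given above, and the difference of 30 from 7 dpci was -1.66 ± 0.24 on the log2 scale (SE, adjusted p = 7.99e-07). It was -1.46 ± 0.22 on the log2 scale (SE, adjusted p = 5.07e-06) for krt18a.1, -1.39 ± 0.28 on the log2 scale (SE, adjusted p = 0.000583) for krt18b and -2.19 ± 0.52 on the log2 scale (SE, adjusted p = 0.00453) for krt4. With lmnb1 and nes these made 6 of the 24 genes, against 2.97% of all genes. In SF ventricles krt18b was called lower at 30 than at 7 dpci (log2 difference -1.45 ± 0.31 SE, adjusted p = 0.00238), along with nes, 2 of 24 genes against 1.73% of all genes. There krt8 (-0.98 ± 0.26 SE, adjusted p = 0.0208) and krt18a.1 (-0.98 ± 0.24 SE, adjusted p = 0.0122) passed the adjusted p but not the 2-fold limit. For both, every 30 dpci library lay below every 7 dpci one, while krt4 did not pass (-1.13, adjusted p = 0.311). Between 3 and 7 dpci nes was the only member called in SF (1 of 24, against 4.27% of all genes) and 0 of 24 were called in PC (2.05% of all genes; 3 at an unadjusted p under 0.05, and 0 by DESeq2). Over the 4 comparisons of times, 6 of the 24 genes were called at least once, against 8.49% of all genes.

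**Figure D1:**
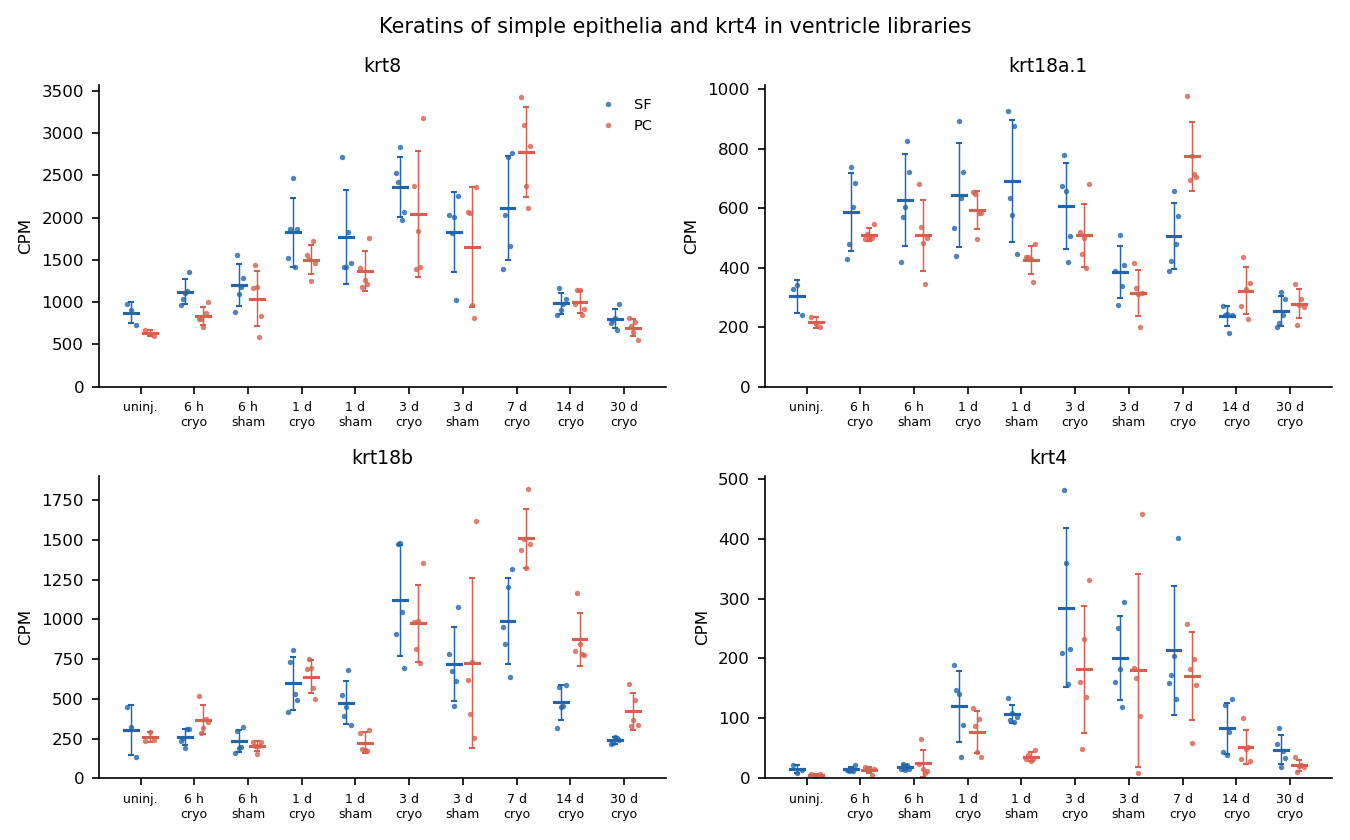
Levels of krt8, krt18a.1, krt18b and krt4 in CPM on linear axes by condition, with SF to the left of PC. Points are libraries, lines are group means and error bars are SD; PC ventricles at 7 dpci have the highest means of krt8, krt18a.1 and krt18b, at 2771, 775 and 1512 CPM.

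The sham operation alone moved the same keratins. At 24 hps krt4 averaged 107 ± 15.7 CPM in SF sham ventricles, against 15.3 ± 7.08 CPM in uninjured ones, and 35.8 ± 7.50 CPM in PC sham ventricles, against 6.10 ± 1.74 CPM in uninjured ones (SD, n = 5 sham and 3 uninjured). The differences were 3.01 ± 0.57 on the log2 scale (SE, adjusted p = 5.7e-05) and 2.80 ± 0.66 on the log2 scale (SE, adjusted p = 0.00231). At 3 dps krt4 had 184, 167, 8.19, 103.3 and 441 CPM in PC sham ventricles, a spread from near the uninjured level to far above it, with a difference of 4.26 ± 0.67 on the log2 scale (SE, adjusted p = 6.38e-05) that was kept in all 15 settings. In SF sham ventricles at 3 dps it had 161, 250.3, 183, 119.8 and 294 CPM, a difference of 3.06 ± 0.60 on the log2 scale (SE, adjusted p = 0.000499) from uninjured ones.

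The sham response of krt8 and krt18a.1 was smaller. At 24 hps krt8 had 2710.0, 1414, 1409.7, 1830.4 and 1468 CPM in SF sham ventricles and krt18a.1 had 929, 633, 578, 876 and 446 CPM, and both lay above all uninjured SF libraries (log2 difference 1.104 ± 0.24 SE, adjusted p = 0.000481 and 1.19 ± 0.23 on the log2 scale (SE, adjusted p = 7.08e-05)). At 6 hps krt18a.1 was called too in SF (log2 difference 1.06 ± 0.24 SE, adjusted p = 0.00143). In PC sham ventricles it was called at 6 hps (log2 difference 1.25 ± 0.25 SE, adjusted p = 0.000289), krt8 at 24 hps (log2 difference 1.21 ± 0.24 SE, adjusted p = 0.000254) and at 3 dps (log2 difference 1.16 ± 0.25 SE, adjusted p = 0.00453), and krt18b at 3 dps (log2 difference 1.16 ± 0.31 SE, adjusted p = 0.0263). The krt8 call at 6 hps in PC stood at the 2-fold limit (1.00) and was kept in 2 of 15 settings. Over the 6 sham comparisons, 15 of the 24 genes were called at least once, with 24 of the 32 calls higher in sham, against 16.6% of all genes called at least once. In SF the calls numbered 6 of 24 at 6 hps (6.74% of all genes), 7 at 24 hps (8.85%) and 1 at 3 dps (2.38%), and in PC 7 at 6 hps (5.1%), 7 at 24 hps (4.31%) and 4 at 3 dps (1.12%).

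Against sham of the same age, cryo-injury moved few simple keratins. At 24 hpci krt18b had 689, 749.8, 691, 570.2 and 500.3 CPM in PC ventricles, against 285, 188, 177, 169.9 and 305 CPM in PC sham ventricles, a difference of 1.19 ± 0.26 on the log2 scale (SE, adjusted p = 0.00325) with no overlap. It was the only one of the 24 genes called in PC at that time (1.42% of all genes), and the call was lost without replicate number 1 or 4. At 3 days 0 of the 24 genes were called in PC (1.89% of all genes; 7 at an unadjusted p under 0.05, and 0 by DESeq2), and krt8 averaged 2038 ± 746 CPM after cryo-injury and 1652 ± 707 CPM after sham. At 6 hours 0 of 24 genes were called in SF (0.65% of all genes; 4 at an unadjusted p under 0.05) and 0 in PC (2.17% of all genes; 5 at an unadjusted p under 0.05), and DESeq2 called 0 in either. Over the 6 cryo-injury comparisons of each population, 8 of the 24 genes were called at least once in SF (10.8% of all genes) and 7 in PC (6.97% of all genes).

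The division of keratin 18 reads between the duplicates varied with time. Of the krt18a.1 and krt18b reads, krt18b took 29.0% ± 5.27 (SD) in PC sham ventricles and 27.3% ± 5.82 in SF sham ventricles at 6 hps, against 54.2% ± 3.95 and 47.5% ± 10.8 in uninjured ones, and 73.1% ± 3.18 in PC and 66.3% ± 7.43 in SF at 14 dpci. Between populations, its share was 31.2% ± 6.07 in SF and 41.5% ± 5.86 in PC at 6 hpci, and 48.8% ± 3.20 in SF and 59.8% ± 3.49 in PC at 30 dpci (exact 2-sided permutation tests, adjusted p = 0.0397 each over 10 conditions). None of the 12 cryo-injury comparisons of this share passed, with 0.0953 as the smallest adjusted p. In PC every cryo-injured library lay above every control library at 24 hours, 7 dpci and 14 dpci. Exact permutation tests gave unadjusted p = 0.00794, 0.0357 and 0.0357 there, the smallest that groups of these sizes allow. The share was chosen for description after its values were seen.

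Markers of other cell types differed over the same groups. Of 7 epicardial symbols, 6 were found and tested (aldh1a2, clu, tbx18, tcf21, wt1a and wt1b), and their summed level was 291 to 468 CPM in PC ventricles at 7 dpci and 227 to 401 CPM in SF ventricles, against 99.5 to 159 and 62.2 to 137 CPM in uninjured ones. At 30 dpci it was 124 to 195 CPM in PC and 83.9 to 132 CPM in SF. At 7 dpci aldh1a2 and clu were called in PC (2.42% of all genes) and clu in SF (3.03% of all genes), all higher. The 8 fibroblast markers summed to 2552 to 4805 CPM in PC at 7 dpci, against 439.6 to 538 CPM in uninjured PC ventricles. Their part in the keratin levels was not tested.

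Epidermal keratins had their highest levels in a few SF libraries. The genes krt5, krt91, krt96 and krt15 were called in SF ventricles at 24 hpci against SF sham ventricles, which with nes made 5 of the 24 genes, against 1.17% of all genes. The calls rested on 1 or 2 libraries. At 24 hpci krt5 had 1219.5, 72.2, 0.463, 3.61 and 4.11 CPM in SF cryo-injured ventricles, against 0.627, 5.40, 3.22, 0.614 and 5.11 CPM in SF sham ventricles. Replicates 1 and 2 stood far above the rest while the other 3 lay within or below the range of the sham libraries. Likewise krt91 had 722, 66.1, 2.32, 2.89 and 2.05 CPM in SF cryo-injured ventricles, against 0.627, 1.54, 3.86, 0.614 and 4.47 CPM in SF sham ventricles. For krt96 only replicate 1 was high, with 115, 1.91, 4.17, 0 and 2.57 CPM in SF cryo-injured ventricles, against 1.88, 0.771, 0.643, 3.07 and 0 CPM in SF sham ventricles.

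The fitted differences were 6.77 ± 1.42 (SE) for krt5, 6.198 ± 1.53 for krt91, 4.65 ± 1.03 for krt96 and 7.62 ± 2.08 for krt15, on the log2 scale. For krt15 the SF cryo-injured ventricles at 24 hpci had 60.3, 0.382, 0, 0 and 0 CPM. Replicate 1 held 173 of their 174 reads, against 1 read in the 5 sham libraries. The ratio of pooled reads was 121, with a 95% counting interval of 21.5 to 4810.3. That interval covers counting error only, and not the spread between ventricles. All 4 calls were lost without replicate number 1. A further fit left out the 9 SF libraries in which epcam, an adhesion protein of epithelial cells, reached 5 CPM. The differences were then -0.26 for krt5, -0.09 for krt91, 0.93 for krt96 and -1.20 for krt15, with none called. That limit was set after the data were seen, and replicates 1 and 2 at 24 hpci are among the 9. Leaving them out removes the high values whatever their source, which was not tested.

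In SF, libraries high in krt5 returned at other times, alone in their group at 3 and 30 dpci but not at 14 dpci. At 3 dpci krt5 had 5.27, 453, 3.04, 4.39 and 4.26 CPM and krt91 had 3.07, 482, 4.06, 0.975 and 3.73 CPM in SF ventricles, each with replicate 2 alone high. At 14 dpci krt5 had 2.45, 521, 4.86, 55.9 and 154 CPM and at 30 dpci 198, 6.45, 0.724, 1.73 and 7.81 CPM in SF ventricles. Smaller raised values were spread over more SF libraries. At 7 dpci krt5 had 19.8, 32.5, 28.8, 1.75 and 9.87 CPM in SF ventricles, and at 3 dps 31.6, 6.08, 2.79, 23.6 and 18.8 CPM in SF sham ventricles. No PC library passed 12.3 CPM of krt5, and the SF against PC calls of krt5, krt91 and krt96 at 24 hpci and 3 dpci, and of krt5 at 14 dpci, were all lost without the epcam libraries. Those libraries include the ones highest in krt5 at these times, so the loss followed from leaving them out.

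All 7 libraries with krt5 at 50 CPM or more were SF, and their epcam level was 3.67 to 38.5 CPM with a median of 8.77, against a median of 0.513 and a highest value of 49.0 CPM in the 89 other libraries. Of 20 epithelial symbols, 3 were not found (cdh1, cldn7 and cldne). Of the genes found 15 were tested, while esrp1, st14a and tp63, a defining gene of basal epidermis, had 1 read between them in all 96 libraries. Without perp, which is read in all groups, the list summed to 18.3 to 97.3 CPM in the 7 libraries with high krt5 and 1.13 to 79.9 CPM in the 89 others. Its part in the keratin levels was not tested.

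In sham ventricles krt96 was lower than in uninjured ones at 24 hours in SF, with 1.88, 0.771, 0.643, 3.07 and 0 CPM in sham against 12.4, 10.8 and 12.6 CPM in uninjured ventricles, a difference of -3.28 ± 1.00 on the log2 scale (SE, adjusted p = 0.0184), a call lost without replicate number 2, 3 or 5. The tested keratins krt18a.2, krt98 and krt99 had 35, 39 and 21 reads in all libraries together. The fit called krt18a.2 lower in SF sham than in uninjured SF ventricles at 6 and 24 hours, where 0 and 2 reads stood against 12, ratios of 0 and 0.0833 with 95% counting intervals of 0 to 0.191 and 0.00905 to 0.374.

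**Figure D2:**
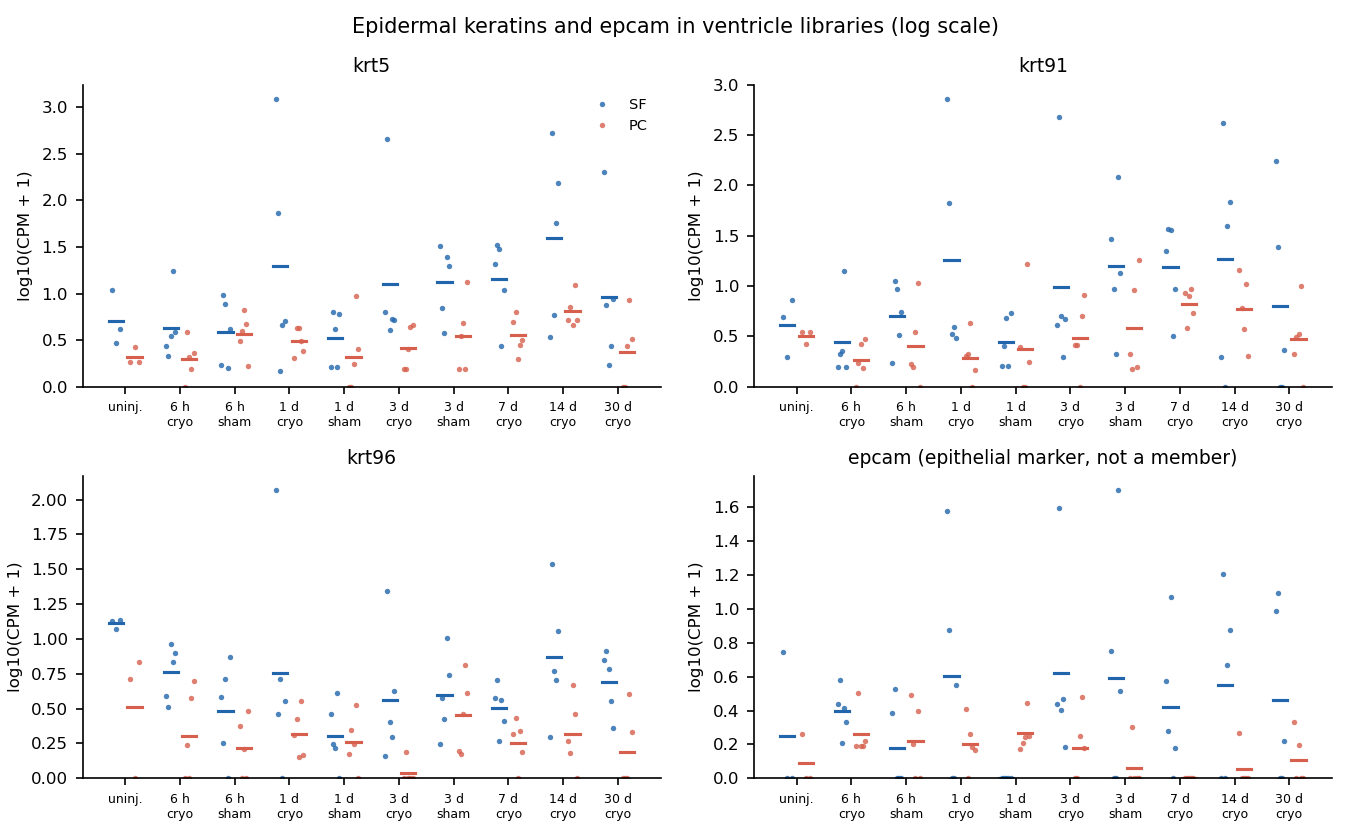
Levels of epidermal keratins on a log10(CPM + 1) axis by condition, SF to the left of PC, with points for libraries and lines for group means. Single SF libraries stand out, such as replicate 1 at 24 hpci with 1219.5 CPM of krt5, while the PC libraries stay at or below 12.3 CPM of krt5.

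Of the muscle filament genes, the desmin duplicates changed in proportion to each other early after cryo-injury. The group mean in CPM of desma (chr19:11096683-11106078, minus strand) was higher and that of desmb (chr13:18079334-18091983, minus strand) lower in cryo-injured than in sham ventricles at 6 and 24 hours in both populations. At 24 hpci desma had 1088, 974, 929.9, 726 and 1367 CPM in SF cryo-injured ventricles, against 402, 363, 503, 307 and 911 CPM in SF sham ventricles. In the same libraries desmb had 125, 177, 137, 252 and 151 CPM in cryo-injured ventricles, against 561, 623, 282, 316 and 387 CPM in sham ventricles. The desmb groups did not overlap and the desma groups did.

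In the fit, the desma difference at 24 hpci in SF passed the adjusted p but not the 2-fold limit (log2 difference 0.92 ± 0.21 SE, adjusted p = 0.00721), and so did desmb at 3 dpci in SF (log2 difference -0.94 ± 0.23 SE, adjusted p = 0.00381) and in PC (log2 difference -0.75 ± 0.22 SE, adjusted p = 0.0384). Without the factor, desmb was called lower in SF at 24 hpci (-1.37, adjusted p = 4.01e-05) and 3 dpci (-1.43, adjusted p = 8.87e-06). It was also called lower without the factor at 7 dpci, with differences of -1.28 in SF and -1.35 in PC, where the fit with the factor gave -0.01 and -0.30. The calls of single desmin genes thus depend on that choice. For desma in PC the fit with the factor gave 0.15 at 6 hpci (adjusted p = 0.844) and 0.24 at 24 hpci (adjusted p = 0.728). At 3 dpci in PC it gave -0.38 (adjusted p = 0.365), so a rise of desma was not shown in PC.

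The share of desmb in the desmin reads of a library is a ratio within the library and does not use the factor. At 6 hours it was 31.7% ± 2.45 in SF cryo-injured ventricles, against 53.6% ± 10.8 in SF sham ventricles, and 16.1% ± 3.41 in PC cryo-injured ventricles, against 29.4% ± 3.62 in PC sham ventricles (SD, n = 5 each). At 24 hours it was 14.9% ± 6.50 against 47.6% ± 14.3 in SF and 15.4% ± 2.68 against 25.8% ± 3.83 in PC, and at 3 days 29.7% ± 9.28 against 61.8% ± 7.47 in SF and 19.96% ± 2.73 against 29.7% ± 6.62 in PC. In these 6 comparisons every cryo-injured library lay below every sham library (exact 2-sided permutation tests, adjusted p = 0.0159 each over 12 comparisons).

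By 14 dpci the desmb share was 63.5% ± 6.03 in SF and 28.7% ± 2.102 in PC ventricles, against 65.3% ± 12.2 and 32.3% ± 4.65 in uninjured ones (exact permutation tests, adjusted p = 0.786 and 0.239). At 7 dpci it was 44.8% ± 10.1 in SF and 21.3% ± 3.78 in PC, and neither difference from uninjured ventricles passed (exact permutation tests, adjusted p = 0.107 and 0.0612). In PC, however, every 7 dpci library lay below every uninjured one. The unadjusted p there was 0.0357, the smallest an exact permutation test of 5 against 3 can give, so full separation did not pass after adjustment over 12 comparisons.

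The populations differed in this share as well. It was higher in SF than in PC in 9 of the 10 conditions and passed in 7 of them (exact 2-sided permutation tests, adjusted p between 0.0132 and 0.0227). In uninjured ventricles all 3 SF libraries lay above all 3 PC libraries, with p = 0.1, the smallest an exact test of 3 against 3 can give. At 24 hpci the shares were 14.9% ± 6.50 in SF and 15.4% ± 2.68 in PC (exact permutation test, adjusted p = 0.897). The share was chosen for description after its values were seen, and both desmin models were made by the authors, so the 3′ end given to each gene bears on its reads.

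As single genes, desma was called lower in SF than in PC at 3 dps, with 202, 389, 301, 229 and 273 CPM in SF against 949, 935, 695, 636 and 551 CPM in PC sham ventricles, no overlap and a difference of -1.29 ± 0.23 on the log2 scale (SE, adjusted p = 1.52e-05). After the sham operation desma rose in SF at 6 hours, with 701, 549, 418, 510.0 and 622 CPM in sham and 339.7, 288 and 228 CPM in uninjured ventricles (log2 difference 1.08 ± 0.25 SE, adjusted p = 0.0017).

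Synemin was lower in SF than in PC in most conditions. At 3 dps synm (chr18:18234287-18259842, minus strand) had 74.7, 65.7, 68.7, 66.0 and 73.3 CPM in SF and 128, 209, 216, 125 and 90.1 CPM in PC sham ventricles, with no overlap. The difference was -1.66 ± 0.21 on the log2 scale (SE, adjusted p = 6.01e-10), the one population call of the 24 genes that all 15 settings kept. In that comparison 3 of the 24 genes (synm, desma and sync) were called, all lower in SF, against 6.68% of all genes.

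At 3 dpci synm had 45.7, 40.2, 47.7, 50.2 and 49.0 CPM in SF and 104, 126, 93.8, 101 and 62.0 CPM in PC ventricles (log2 difference -1.47 ± 0.20 SE, adjusted p = 1.02e-08), and at 30 dpci 60.7, 104, 107, 51.2 and 113 CPM in SF and 176, 184, 187, 163 and 169 CPM in PC (log2 difference -1.72 ± 0.23 SE, adjusted p = 1.03e-08). These groups did not overlap, and the calls were kept in 13 and 14 of 15 settings. It was called lower in SF in 5 more conditions, uninjured, 6 hps, 24 hpci, 7 dpci and 14 dpci, by 1.01 to 1.34 in size, and all 5 of those calls were lost in the fit without the factor. In uninjured ventricles the difference was -1.01 ± 0.26, kept in 7 of 15 settings.

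After surgery synm was lower than in uninjured ventricles at 6 hps in SF, with 80.1, 115, 87.4, 63.8 and 70.3 CPM in sham and 124, 145 and 185 CPM in uninjured ventricles (log2 difference -1.24 ± 0.21 SE, adjusted p = 1.51e-05), and at 24 hps in PC (log2 difference -1.03 ± 0.20 SE, adjusted p = 0.000163), both lost without the factor. At 7 dpci it had 50.6, 58.1, 61.0, 66.8 and 67.5 CPM in SF and 81.8, 94.8, 66.6, 99.1 and 98.0 CPM in PC, below all uninjured libraries of the same population. The fit gave -0.35 and -0.28 and called neither, and without the factor it gave -1.32 and -1.08 and called both.

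Syncoilin was called lower than in uninjured ventricles at some times after surgery in PC. The sync gene at chr23:23477770-23481102 (minus strand) had 6.48, 11.7, 13.8, 5.94 and 13.1 CPM in PC sham ventricles at 24 hours, against 51.8, 81.4 and 47.9 CPM in uninjured PC ventricles, with no overlap and a difference of -2.65 ± 0.42 on the log2 scale (SE, adjusted p = 2.93e-06) that all 15 settings kept. It was also lower at 7 dpci, with 12.7, 10.8, 9.94, 8.96 and 9.36 CPM (log2 difference -2.26 ± 0.53 SE, adjusted p = 0.00603), and at 30 dpci, with 4.54, 6.47, 26.2, 21.1 and 27.2 CPM (log2 difference -1.72 ± 0.42 SE, adjusted p = 0.0232). It was the 1 member of 24 called in PC at 30 dpci, where 0.474% of all genes were called. Against uninjured PC ventricles sync was not called at 6 hps (-1.30, adjusted p = 0.0522), 3 dps (-0.84, adjusted p = 0.363) or 14 dpci (-1.65, adjusted p = 0.0692). In SF ventricles sync was called in no cryo-injury or sham comparison, but the 3 uninjured SF libraries spread over 43.1, 8.84 and 59.9 CPM. The SF differences of sham from uninjured were -1.12 at 24 hps (adjusted p = 0.0601) and -1.34 at 3 dps (adjusted p = 0.0841). At no time was the cryo-injury response of sync called as unlike between SF and PC, so a fall particular to PC was not shown. A second gene of that name, SYNC at chr25:35482055-35493706, had 16 reads in all.

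Muscle markers differed over the same groups. The 4 tested cardiomyocyte markers of 12 symbols listed (actn2b, myl7, ryr2b and tnni1b) summed to 5799.5 to 14849 CPM in SF and 7943 to 17735 CPM in PC ventricles at 24 hpci, against 13532 to 26764 and 15172 to 19395 CPM in sham ventricles. At 7 dpci they summed to 8504 to 14078 CPM in SF and 5179.9 to 13076 CPM in PC, against 18334 to 19614 and 17683 to 20863 CPM in uninjured ventricles. These sums are mostly myl7, which averaged 14724 CPM over all libraries, against 1504 CPM of actn2b, 42.1 CPM of ryr2b and 0.587 CPM of tnni1b. The 13 tested genes of the skeletal muscle list, of which some are also read in heart, summed to 974 to 2252 CPM in SF at 3 dpci, against 4154 to 4873 CPM in SF sham ventricles. Between SF and PC, 9 of the 13 were called at 7 dpci, all higher in SF (5.38% of all genes), and 7 at 3 dps, of which 6 were higher in SF (6.68% of all genes). Their part in the desmin, synemin and syncoilin levels was not tested.

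**Figure D3:**
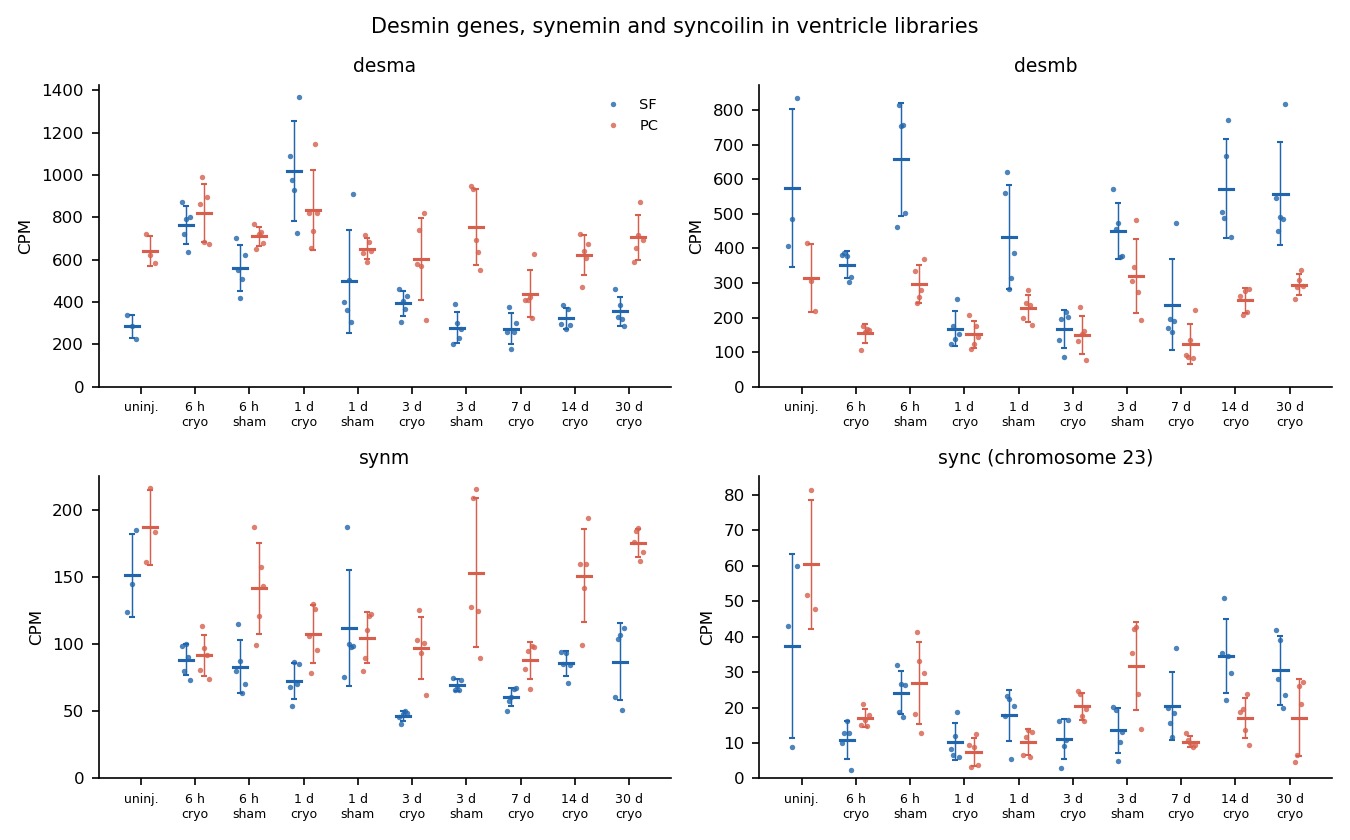
Levels of desma, desmb, synm and sync in CPM by condition, SF to the left of PC, with points for libraries, lines for group means and error bars for SD. At 24 hpci the mean of desma was 1017 CPM in SF while that of desmb was 169 CPM, and synm was lower in SF than in PC at 3 dps, with means of 69.7 and 154 CPM.

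Nestin had its highest group mean at 7 dpci in both populations. The gene nes (chr10:11128493-11142449, minus strand) had 36.3, 48.0, 41.2, 18.3 and 22.8 CPM in SF and 17.1, 29.4, 20.9, 11.3 and 13.2 CPM in PC ventricles at 7 dpci, against 8.49, 0 and 7.88 CPM in uninjured SF and 1.67, 0 and 0 CPM in uninjured PC ventricles. Every 7 dpci library lay above every uninjured one of its population. The annotation places another gene over nes on the other strand, and whether counting used strand is not given in the sources used here.

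In PC the uninjured ventricles held 2 nes reads in all, so the fitted difference (log2 difference 3.96 ± 1.12 SE, adjusted p = 0.029) depends on the prior count of the fit. The ratio of the reads pooled over each group, scaled by the pooled library sizes, was 36.0 at 7 dpci (215 reads, 95% counting interval 9.84 to 299) and 32.1 at 14 dpci (111 reads, interval 8.69 to 269), where PC ventricles had 16.9, 30.2, 10.9, 17.2 and 2.09 CPM. In SF the 7 dpci difference was 1.45 ± 0.89 on the log2 scale (SE, adjusted p = 0.468), not called, and 2.52 without the factor (adjusted p = 0.000812), called. The PC calls at 7 and 14 dpci were each lost without 3 of the 5 replicate numbers.

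In SF sham ventricles nes was called lower than in uninjured ones at 6 hours (log2 difference -2.80 ± 0.89 SE, adjusted p = 0.0318) and 24 hours (log2 difference -2.61 ± 0.80 SE, adjusted p = 0.0187), with overlap, since 1 uninjured SF library held 0 reads of it. Against sham, nes was higher in SF at 24 hpci, with 3.14, 4.20, 12.05, 13.7 and 7.70 CPM in cryo-injured and 0.627, 0.771, 0, 0.614 and 1.92 CPM in sham ventricles and no overlap (log2 difference 2.73 ± 0.75 SE, adjusted p = 0.0322, kept in 8 of 15 settings). In PC at 24 hpci nes averaged 4.70 CPM, against 0.550 CPM in sham ventricles, with no overlap (log2 difference 2.61 ± 0.81 SE, adjusted p = 0.067, not called). The 24 hpci responses of SF and PC differed by 0.12 on the log2 scale, not called, so an early rise particular to SF was not shown. Between 3 and 7 dpci nes rose on in SF (log2 difference 1.59 ± 0.44 SE, adjusted p = 0.012) and fell between 7 and 30 dpci in SF (log2 difference -3.92 ± 0.82 SE, adjusted p = 0.00201) and in PC (log2 difference -2.68 ± 0.76 SE, adjusted p = 0.0225). At 30 dpci SF ventricles had 2.02, 0.717, 2.17, 0 and 0.651 CPM. The fit called this lower than in uninjured SF ventricles (log2 difference -2.47 ± 0.77 SE, adjusted p = 0.0403; 1 of 24 genes, against 3.39% of all genes), a call lost without any replicate number and without the factor.

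The response of nes was the one interaction called among the 24 genes, where 2.01% of all genes were called in at least 1 of 6 interactions and 0.949% at 14 dpci. The other times gave 0.0% (6 hpci), 0.314% (24 hpci), 0.117% (3 dpci), 0.986% (7 dpci) and 0.4% (30 dpci). At 14 dpci SF ventricles had 9.80, 11.8, 11.1, 2.04 and 7.94 CPM, and the SF response minus the PC response was -4.32 ± 1.13 on the log2 scale (SE, adjusted p = 0.0345). The uninjured level enters this value, with 23 reads in SF and 2 in PC (ratio 10.9, 95% counting interval 2.69 to 95.1). The call was lost without the factor and without 4 of the 5 replicate numbers. In uninjured ventricles nes and synm were the 2 of 24 genes called between SF and PC, nes higher in SF and synm lower, against 5.78% of all genes.

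Vimentin was called in 0 of 38 comparisons by edgeR, with 0 at an unadjusted p under 0.05, and in 0 by DESeq2. Of the 15 other settings, 1 called it, the filter of 10 counts in 5 libraries, between SF and PC at 14 dpci. Its gene (chr10:14512948-14520996, minus strand, a model made by the authors) had 958 reads in all libraries together and group means between 1.97 and 15.5 CPM. The lowest mean was in SF at 24 hpci, with 1.39, 3.06, 1.39, 1.44 and 2.57 CPM, and the highest in PC at 14 dpci, with 13.6, 32.8, 15.4, 13.4 and 2.09 CPM, of which replicate 2 had the highest value of any library. Its level rests on few reads per library.

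The B-type lamin lmnb1 rose at 7 dpci in SF and after sham operation at some times in both populations, and lmnb2 was called after surgery in PC sham ventricles only. The genes are lmnb1 (chr20:24524456-24543701, plus strand) and lmnb2 (chr5:26345038-26357275, plus strand), both part of the nuclear lamina of nearly all cells. At 7 dpci lmnb1 had 53.3, 71.3, 58.4, 69.9 and 60.8 CPM in SF and 35.6, 41.6, 30.8, 25.7 and 36.9 CPM in PC ventricles, against 17.6, 14.7 and 11.8 CPM in uninjured SF and 15.9, 15.8 and 7.44 CPM in uninjured PC ventricles. No 7 dpci library overlapped an uninjured one of its population, and the difference was called in SF (log2 difference 1.65 ± 0.42 SE, adjusted p = 0.0122) and not in PC (1.02, adjusted p = 0.202). Without the factor it was 2.08 in SF and 1.395 in PC, called in both.

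Between populations at 7 dpci, lmnb1 was higher in SF (log2 difference 1.12 ± 0.29 SE, adjusted p = 0.00707) with no overlap, and the call was lost without the factor. The 7 dpci response of lmnb1 differed between SF and PC by 0.64 ± 0.47 on the log2 scale (SE, adjusted p = 0.673), not called. At 7 dpci the 24 genes gave 2 calls between SF and PC (lmnb1 and synm), against 5.38% of all genes.

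The sham operation raised both genes in PC at 6 hours. There lmnb1 had 18.8, 48.5, 33.1, 26.3 and 33.0 CPM and lmnb2 had 29.9, 43.2, 26.9, 45.8 and 37.7 CPM in sham ventricles, against 15.9, 15.8 and 7.44 CPM of lmnb1 and 21.7, 7.48 and 14.0 CPM of lmnb2 in uninjured ones, with differences of 1.51 ± 0.37 on the log2 scale (SE, adjusted p = 0.00336) and 1.60 ± 0.33 on the log2 scale (SE, adjusted p = 0.00038). At 24 hps in PC lmnb2 was called (log2 difference 1.18 ± 0.31 SE, adjusted p = 0.00802) and at 3 dps lmnb1 (log2 difference 1.39 ± 0.35 SE, adjusted p = 0.0189). In SF sham ventricles lmnb1 was called at 24 hours (log2 difference 1.01 ± 0.34 SE, adjusted p = 0.0346, kept in 6 of 15 settings).

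At later times lmnb2 had 47.0, 35.4, 37.5, 32.6 and 37.7 CPM in SF and 16.9, 38.4, 17.3, 11.5 and 11.5 CPM in PC ventricles at 14 dpci, a difference of 1.19 ± 0.27 on the log2 scale (SE, adjusted p = 0.00103). At 30 dpci both lamins were called higher in SF, lmnb1 by 1.27 and lmnb2 by 1.00, the second at the limit and kept in 2 of 15 settings. All 3 of these calls were lost without the factor. The A-type lamin gene lmna, whose model here was also made by the authors, had 19 reads in all libraries together, so its level could not be followed.

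**Figure D4:**
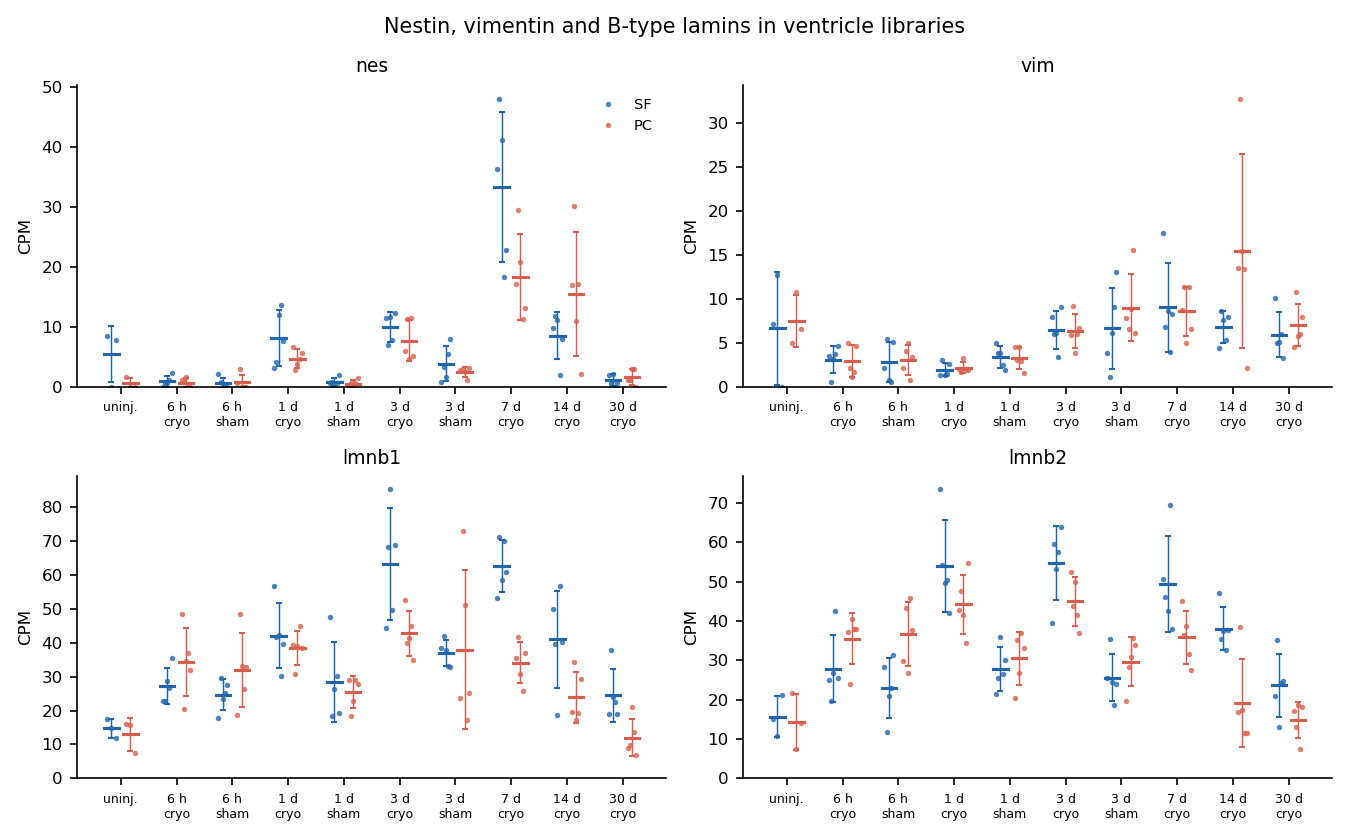
Levels of nes, vim, lmnb1 and lmnb2 in CPM by condition, SF to the left of PC, with points for libraries, lines for group means and error bars for SD. At 7 dpci the nes mean was 33.4 CPM in SF and 18.4 CPM in PC, and it was no more than 10.01 CPM in the other groups but PC at 14 dpci, and vim stayed at group means of 15.5 CPM or less.

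Between SF and PC, 13 of the 24 genes were called in at least 1 of the 10 conditions, with 20 of the 30 calls higher in SF, against 25.1% of all genes called at least once. After synm, called in 8 conditions, krt4 was called in 4 and krt5 in 3. The calls numbered 1 of 24 at 6 hps (6.36% of all genes), after cryo-injury 5 at 1 day (7.92%), 6 at 3 days (6.44%), 4 at 14 days (7.88%) and 5 at 30 days (6.68%). Those at 1 and 3 days include krt5, krt91 and krt96, and those at 14 days krt5, whose high values lay in a few SF libraries. Those at 3, 14 and 30 days also include krtcap2 or syncripl, which form no filaments. At 6 hpci edgeR called 0 of 24 (6.92% of all genes; 3 at an unadjusted p under 0.05) and DESeq2 called 1, krt15. At 24 hps krt4 had 133, 98.0, 109, 93.9 and 102 CPM in SF and 31.4, 39.5, 28.3, 32.7 and 47.0 CPM in PC sham ventricles, and krt18b had 522, 391, 447, 684 and 334 CPM in SF and 285, 188, 177, 169.9 and 305 CPM in PC sham ventricles, both with no overlap (log2 difference 2.49 ± 0.51 SE, adjusted p = 0.000245 and 1.62 ± 0.30 on the log2 scale (SE, adjusted p = 3.28e-05)). They were 2 of 24 genes in a comparison where 7.39% of all genes were called, and each call was kept in 13 of 15 settings. The krt4 calls at 24 hpci, 3 dpci and 30 dpci were lost without the factor.

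Of the genes that match by name only, krtcap2 had 117, 136, 138, 101 and 139 CPM in SF cryo-injured ventricles at 3 dpci, against 46.2, 69.1, 49.7, 67.8 and 50.6 CPM in SF sham ventricles, the 1 call of 24 genes there, where 4.55% of all genes were called (log2 difference 1.19 ± 0.21 SE, adjusted p = 1.71e-05). It was also higher in PC at 7 dpci (log2 difference 1.14 ± 0.30 SE, adjusted p = 0.0164). The RNA-binding syncripl rose after the sham operation at 6 hours, with 63.4, 75.3, 66.8, 45.1 and 84.2 CPM in PC sham and 40.1, 13.3 and 24.0 CPM in uninjured PC ventricles (log2 difference 1.59 ± 0.25 SE, adjusted p = 4.2e-06), and in SF (log2 difference 1.19 ± 0.24 SE, adjusted p = 0.000262). None of these 3 genes forms filaments.

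**Figure D5:**
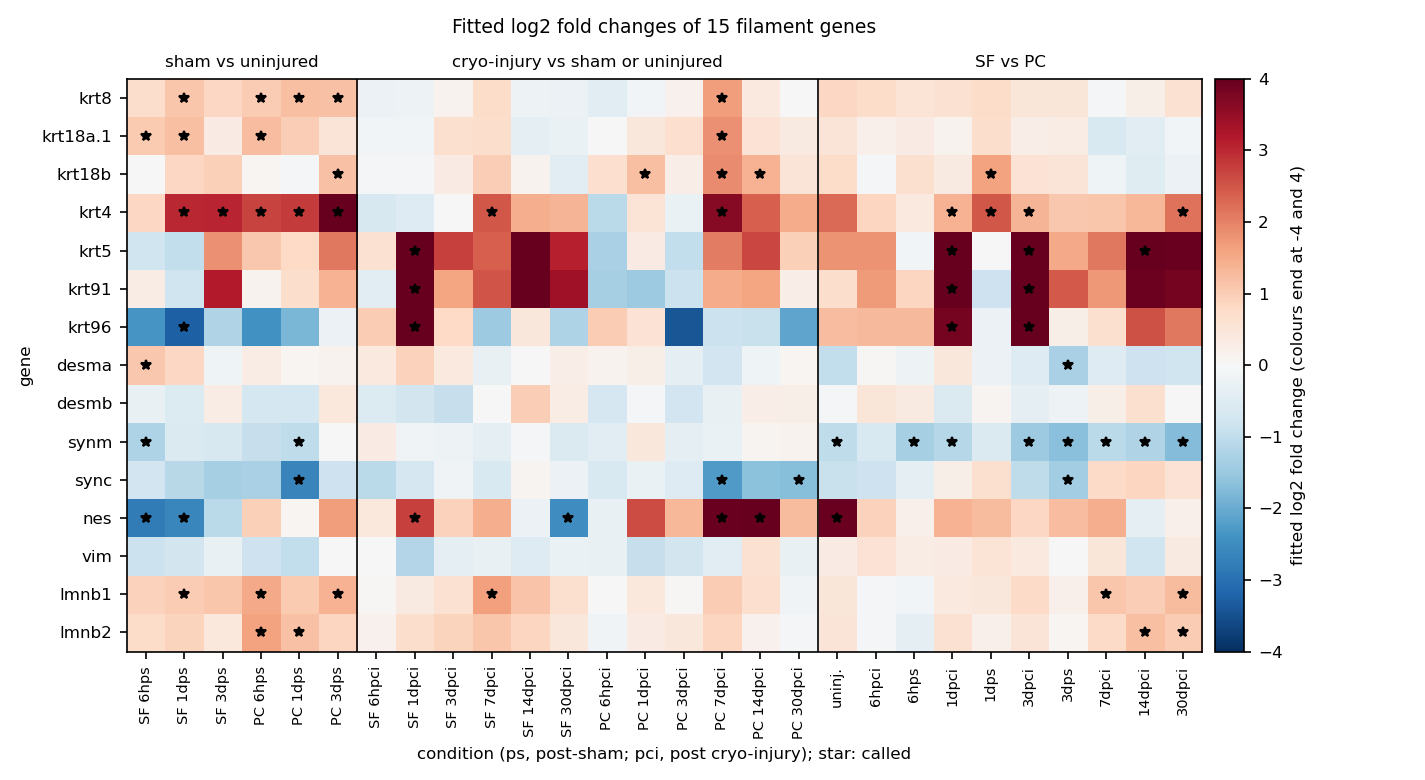
Fitted log2 differences of 15 genes in the sham, cryo-injury and SF against PC comparisons, with colour for the difference and stars for calls. The keratins krt8, krt18a.1, krt18b and krt4 are starred together at 7 dpci in PC, with differences of 1.66, 1.81, 1.91 and 3.66, and synm is negative for SF against PC.

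Genes that work with these filaments were counted as well. Of 20 tested linker and desmosome genes, 1 was called in any cryo-injury comparison (10.8% of all genes in SF and 6.97% in PC were called at least once), DST lower in SF at 3 dpci than in SF sham ventricles. Of 12 tested partners of the nuclear lamina, 1 was called after cryo-injury, a share near the same background, tmpoa, a protein that binds lamins and chromatin, higher in PC at 30 dpci. In PC sham ventricles tmpoa was called higher at 6 hours, 24 hours and 3 days, and zmpste24, the protease that matures prelamin A, at 24 hours. Of 2 tested chaperones of filaments, hspb1 was called lower in SF at 3 dpci than in SF sham ventricles. It was called higher in SF sham than in uninjured SF ventricles at 6 hours, and higher at 30 than at 7 dpci in both populations. Of 11 tested genes in a list of other filament genes by symbol, 2 were called in any comparison, iffo1a and iffo1b, both higher in SF than in PC, where 25.1% of all genes were called at least once.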

How the data were processed

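The authors deposited 1 table of raw read counts per gene for all 96 libraries, made from QuantSeq 3′ FWD libraries of individual ventricles. Per the submitters' processing notes and the study's methods, they used bcl2fastq 2.20.0, Trim Galore 0.6.4 and STAR 2.7.6a with the Mexican tetra 2.0 assembly and a customised Ensembl 103 annotation, in which 7 of the 30 gene models described here were made by the authors. The strand setting and the handling of reads that match several genes are not given in the sources used here. A second deposited table holds rlog values, a log2-like scale, and was not used here. No table holds columns of the authors' own comparisons.

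Groups were taken from the sample titles. Counts were analysed with edgeR 4.0.16 in R 4.3.3. A gene was tested when any library reached 1 CPM (18763 of 27420), TMM scaled the library sizes, and 1 factor of unwanted variation was estimated by the RUVg method over genes of low variation (log2 CPM, prior count 1). All 96 libraries entered 1 quasi-likelihood fit, and p-values were adjusted by Benjamini-Hochberg within each comparison. The number of factors was not given in the sources used here. CPM printed per library use the library's total count scaled by its TMM factor, while the filter of 1 CPM used the total count alone. Counting intervals are exact at 95% and cover counting error only, and depth per library (672292 to 2586602 counts) limits all genes of low level. The test was run on simulated counts with a common spread, no unwanted variation and changes only in genes well above the floor. That run does not cover genes of few reads, single high libraries or the effect of the factor.

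Genes were chosen by symbol. In some groups, per-library values are given for vim, the desmins, B-type lamins, krt4, krt5, krt8, krt15, krt18a.1, krt18b, krt91, krt96, nes and synm. They are also given for most other genes called in a comparison, at most the 12 with the lowest adjusted p. For lmna and krt18a.2 only summed reads are given. The genes and all marker lists were chosen with earlier results of these data known. The 15 other settings were RLE size factors, 2 other filters, 0 and 2 RUVg factors, DESeq2 1.42.0, only the groups compared, a replicate block, each of 5 replicate numbers left out, 4 libraries left out whose accessions stand among those of the other population, and the 9 libraries with epcam at 5 CPM or more left out. The last of these, and the tests of desmin and keratin 18 shares, were chosen after seeing the data. No sequences are shown, since no sequence of this assembly was used here.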

Additional observations from a re-analysis of the deposited data

Results flagged for a closer look

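In 33 of 270 pairs of a gene and a group (15 genes in 18 groups of 5 libraries), 1 library stood far from the other 4 of its group. The limit used passes about 1 in 20 for normally distributed values. Many CPM values here are skewed or rest on few reads, and the same libraries recur across genes, so that rate is no yardstick for this count.

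Epidermal keratins made most of them. For krt5, SF replicate 1 at 24 hpci had 1219.5 CPM (0.463 to 72.2 in the other 4), SF replicate 1 at 30 dpci 198 CPM (0.724 to 7.81), SF replicate 2 at 3 dpci 453 CPM (3.04 to 5.27) and SF replicate 4 at 6 hpci 16.4 CPM (1.12 to 2.90). In PC, replicate 4 at 24 hps had 8.32 CPM (0 to 1.54) and replicate 5 at 3 dps 12.3 CPM (0.555 to 3.78). For krt91, SF replicate 1 at 24 hpci had 722.5 CPM (2.05 to 66.1), replicate 2 at 3 dpci 482 CPM (0.975 to 4.06), replicate 2 at 14 dpci 412 CPM (0 to 68.0), replicate 1 at 30 dpci 175 CPM (0 to 23.7), replicate 4 at 3 dps 120.4 CPM (1.12 to 28.5) and replicate 4 at 6 hpci 13.3 CPM (0.580 to 1.25). The PC libraries so marked for krt91 were replicate 4 at 24 hps with 15.4 CPM (0 to 1.50), replicate 4 at 30 dpci with 9.03 CPM (0 to 2.33) and replicate 4 at 6 hps with 9.77 CPM (0 to 2.50). For krt96 they were SF replicate 1 at 24 hpci with 115 CPM (0 to 4.17), SF replicate 2 at 3 dpci with 21.2 CPM (0.439 to 3.20) and PC replicate 2 at 3 dpci with 0.540 CPM against 0 in the other 4. The high values of these 3 genes thus fell in the same SF libraries at 24 hpci and 3 dpci.

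Of the other keratins, krt4 had 64.8 CPM in PC replicate 2 at 6 hps (8.27 to 23.7 in the other 4) and 401 CPM in SF replicate 5 at 7 dpci (132 to 205). The type I genes stood out once each, krt18a.1 with 977 CPM in PC replicate 1 at 7 dpci (696 to 777) and krt18b with 1164 CPM in PC replicate 2 at 14 dpci (774 to 847).

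Among the muscle genes, desmb had 474 CPM in SF replicate 5 at 7 dpci (159 to 197), 819 CPM in SF replicate 5 at 30 dpci (452 to 546) and 108 CPM in PC replicate 1 at 6 hpci (159 to 176). In SF replicate 2 at 24 hps synm had 187 CPM (75.8 to 100.4).

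Of the remaining genes, lmnb1 had 38.0 CPM in SF replicate 2 at 30 dpci (18.9 to 23.9), and lmnb2 had 38.4 CPM in PC replicate 2 at 14 dpci (11.5 to 17.3) and 24.0 CPM in PC replicate 2 at 6 hpci (37.2 to 40.5). For nes, PC replicate 4 at 3 dps had 1.11 CPM (2.52 to 3.08) and PC replicate 2 at 6 hps 2.92 CPM (0 to 0.696). For vim, PC replicate 3 at 24 hpci had 3.32 CPM (1.64 to 2.08) and PC replicate 4 at 3 dps 15.6 CPM (6.16 to 8.82). The value of PC replicate 2 at 14 dpci was thus the highest of its group for both krt18b and lmnb2.

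The difference of nes at 14 dpci from uninjured ventricles was called as unlike between the populations, by -4.32 on the log2 scale for SF minus PC (edgeR, adjusted p = 0.0345). The call was lost without the factor and without most of the replicate numbers. The uninjured ventricles it uses held 23 nes reads in SF and 2 in PC.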

How the results depend on the processing

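Of the 92 calls among the 24 genes over all comparisons, 3 were kept under each of the 15 other settings: synm between SF and PC at 3 dps, sync at 24 hps in PC and krt4 at 3 dps in PC. The other 89 were lost or changed under at least 1 setting, 68 of them without at least 1 replicate number. The settings kept 87 calls with RLE size factors, 90 with no filter beyond 1 read, 82 with DESeq2, 80 with the replicate block and 85 without the 4 libraries whose accessions stand among the other population. Fewer were kept with no RUVg factor (69), without the epcam libraries (70), with the filter of 10 counts in 5 libraries (43 of 89 refitted), with only the groups compared (33) and with 2 RUVg factors (20). The cause was not tested.

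In SF cryo-injury comparisons 8 genes were called at least once, and 4 with the stricter filter, 15 with no RUVg factor, 3 with 2 factors, 3 with only the groups compared, 5 without the epcam libraries and 3 to 13 without a replicate number. In PC cryo-injury comparisons the 7 became 11 with no factor and 6 to 10 without a replicate number. Between SF and PC the 13 became 6 with 2 factors, 8 without the epcam libraries and 7 to 14 without a replicate number. The 1 interaction became 2 with RLE, 3 with the stricter filter, with no filter, with 2 factors and without the 4 libraries, 5 with DESeq2, 6 with only the groups compared, and 0 with no factor, with 0 to 1 without a replicate number. Against uninjured ventricles the 15 of sham became 7 with 2 factors and 9 to 14 without a replicate number, and the 6 between times became 1 with only the groups compared and 4 to 8 without a replicate number.

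Directions turned for 12 calls. Without the epcam libraries the SF difference of 24 hpci from sham was -0.09 for krt91, -1.20 for krt15 and -0.26 for krt5. With 2 factors SF minus PC was -0.60 for krt4 and -0.34 for krt5 at 24 hpci, -1.14 for krt91, -0.34 for krt4 and -1.07 for krt5 at 3 dpci, and -1.18 for krt5 at 14 dpci. With only the groups compared it was -4.13 for krt91, -3.47 for krt5 and -2.94 for krt96 at 3 dpci, and -2.26 for lmnb1 and -0.002 for syncripl at 30 dpci. Without a replicate number it was between -0.32 (without replicate 2) and 6.64 for krt91 at 3 dpci.

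With the replicate block the counts were 9, 7, 12, 1, 14 and 6 in the order above. Same-numbered cryo-injured and sham libraries deviated together hardly more than others (mean correlation 0.012 over 30 pairs, against -0.003 for different numbers), and 0 of 6 comparisons had each pair above 0.1. No pairing by number was thus seen there, and the comparisons with uninjured ventricles were not checked for it. With 1 library of each group left out, the exact tests of the desmb share after cryo-injury against sham gave adjusted p = 0.0572, the smallest that 4 against 4 can give over 12 comparisons when 6 tie. Depth limits genes near 1 CPM, which rest on 1 or 2 reads in a library.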

Other observations

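Keratin-like genes under other symbols, found by their description after values were seen, held more reads than several of the named genes. The gene si:ch211-156l18.7, described as similar to type I keratin 19, averaged 626 CPM over all libraries. Its group mean was highest in PC ventricles at 7 dpci, at 1351 CPM, and lowest in uninjured SF ventricles, at 231 CPM. It was called in 8 comparisons, higher at 7 dpci than in uninjured ventricles and lower at 30 than at 7 dpci in both populations, and higher in sham than in uninjured ventricles at 24 hps and 3 dps in both populations. The gene wu:fk65c09, described as similar to type I keratin 14, averaged 1.78 CPM and was highest in SF ventricles at 14 dpci, with a group mean of 12.8 CPM and 38.6 CPM in replicate 2, the library that also had the highest krt91 value of its group. A vimentin-like gene, viml, had its highest group mean in uninjured SF ventricles, at 3.15 CPM.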
